A study of Homo sapiens with 3 samples.

Results

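The miR-200 family was examined in RNA recovered with Argonaute2 (Ago2), the core protein of the RNA-induced silencing complex, which carries mature miRNAs to their targets. Its 5 members, hsa-miR-200b, hsa-miR-200a, hsa-miR-429, hsa-miR-200c and hsa-miR-141, were taken by their exact names among the 851 human miRNA names on an Agilent array. Hep G2, a human liver cancer cell line, was used in 3 groups, each held by 1 array: non-treated cells, cells given 5 nM of a miR-195 mimic and cells given 5 nM of a miR-497 mimic. Lysates were taken 24 hours after transfection, Ago2 was immunoprecipitated (Ago2-IP), and 10 ng of the recovered RNA was labelled for each array. No group received a control mimic, so the mimic and the act of transfection cannot be told apart in a comparison with non-treated cells. All groups were cells of the same line, and arrays of total RNA or of an immunoprecipitation with another antibody were not analysed here, so a signal below gives the miRNA in the Ago2-IP fraction and no ratio to its level in the cell. With 1 array per group no difference had a replicate check and no test was made.

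miRNAs of this family are best known in epithelial cells, where they repress the mRNAs of ZEB1 and ZEB2, transcription factors that shut down E-cadherin and drive the epithelial-mesenchymal transition. The ZEB proteins in turn repress the miR-200 genes. A miRNA finds its targets mainly through its seed, and the family is divided both by seed and by the gene cluster from which a member is transcribed.

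In the RefSeq annotation of GRCh38.p14 MIR200B, MIR200A and MIR429 lie together on chromosome 1 within the host transcript MIR200BHG, and MIR200C and MIR141 lie on chromosome 12 within MIR200CHG. The mature RefSeq sequences are shown because they set which members share a seed. They run from 5′ to 3′, and capitals mark the seed, bases 2 to 8.
hsa-miR-200b: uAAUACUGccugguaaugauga
hsa-miR-200c: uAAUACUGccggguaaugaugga
hsa-miR-429: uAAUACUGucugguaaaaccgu
hsa-miR-200a: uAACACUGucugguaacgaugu
hsa-miR-141: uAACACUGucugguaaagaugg

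The seed AAUACUG was shared by hsa-miR-200b, hsa-miR-200c and hsa-miR-429, and the seed AACACUG by hsa-miR-200a and hsa-miR-141. Among 2370 human mature names in the RefSeq table no other miRNA held either seed. The seeds differ at 1 base, U4C, with the base of hsa-miR-200b first and positions counted from 1 at the 5′ end of the miRNA. Each seed is present in both gene clusters, and the closest pairs of members each span both clusters. hsa-miR-200b and hsa-miR-200c were identical at 20 of 22 aligned bases, with U11G and A22G from the former to the latter. hsa-miR-200a and hsa-miR-141 were likewise identical at 20 of 22 bases, with C17A and U22G. hsa-miR-429 was closest to hsa-miR-200a of its own cluster and to hsa-miR-141, at 17 of 22 bases each. Probe sequences were not used here, so the share of a signal that came from the closest relative was not tested. Both transfected miRNAs carry another seed, AGCAGCA.

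All 5 members were well above background in Ago2-IP RNA on all 3 arrays, so both clusters were represented in each group. The arrays read whole cultures, in which fewer cells holding a miRNA and less of it per cell cannot be told apart. Over all human names the same detection rule was met by 19.7% for non-treated cells, 18% for the miR-195 array and 14.2% with miR-497. A probe was counted as well above background when over 50% of its used spots carried the scanner software's flag, and 1 such probe sufficed for a miRNA. The cluster of hsa-miR-200b, hsa-miR-200a and hsa-miR-429 had 6 of 6 probes well above background in non-treated cells and with miR-195, and 5 of 6 with miR-497. The cluster of hsa-miR-200c and hsa-miR-141 had 2 of 4 probes above it on each array, so detection of each of its members rested on 1 probe.

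The signal of hsa-miR-200b, the mean over spots summed over its probes, was 1481 intensity units for non-treated cells, 1355 with miR-195 and 565 with miR-497. The spread between spots of 1 array, the spot SD, was 65.2, 44.4 and 44.5 units. Below, the spot SD of a difference combines both arrays. hsa-miR-200a gave 369, 412 and 132 units in the same order of arrays, with spot SDs of 11.55, 22.5 and 17.9. On the miR-497 array its first probe had 4 of 8 spots flagged, at a mean of 17.2 units, and did not meet the rule, while its second probe did.

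For hsa-miR-429 the signals were 173, 132 and 52.4 units, with spot SDs of 15.1, 7.48 and 5.70. Both of its probes met the detection rule on every array. Across the 3 members of this cluster the miR-497 array was the dimmest, whereas the non-treated and miR-195 arrays changed places from member to member.

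hsa-miR-200c gave 149 units in non-treated cells, 106 with miR-195 and 37.1 with miR-497, with spot SDs of 13.3, 16.3 and 8.97. Its first probe stood at -2.24, -3.57 and -4.28 units with no spot flagged on any array, and its second probe carried the whole signal at 151, 109 and 41.4 units. hsa-miR-141 gave 123, 130 and 43.4 units, with spot SDs of 11.1, 8.47 and 5.01. Its second probe read 15.1, 10.8 and 4.62 units and did not meet the rule, so that this cluster too was dimmest on the miR-497 array.

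**Figure D1:**
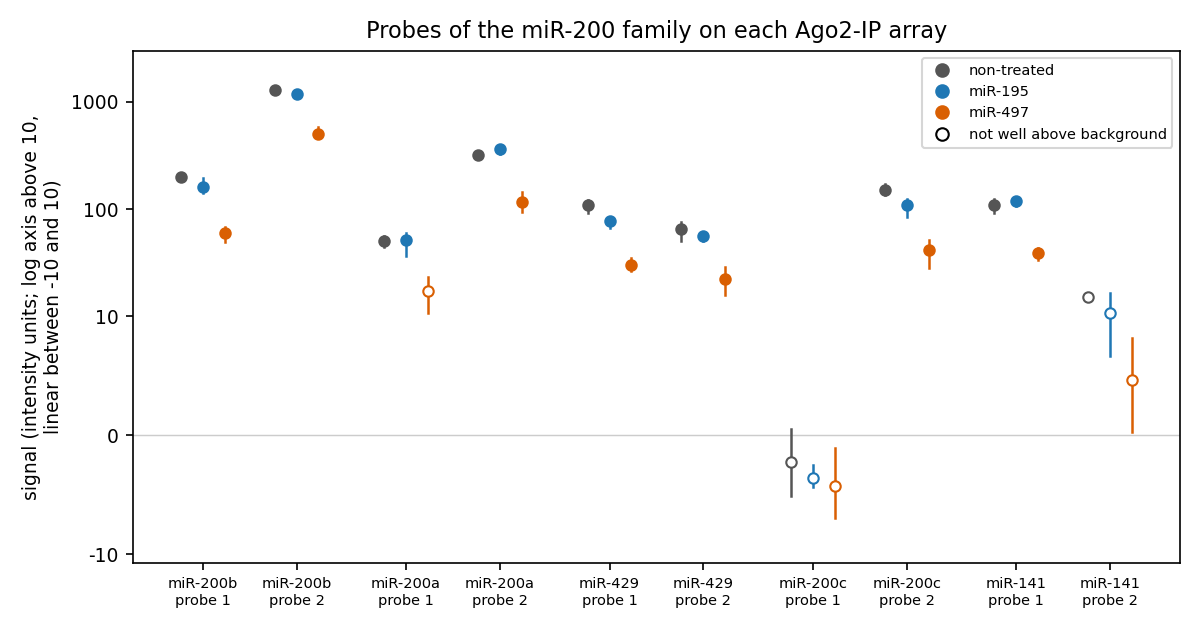
Signal of each probe of the 5 members on the 3 Ago2-IP arrays, in intensity units on an axis that is logarithmic above 10 and linear between -10 and 10. Points are means over used spots, lines run from the lowest to the highest spot, and open points were not well above background; the first probe of miR-200c lay below 0 on every array, at -2.24, -3.57 and -4.28 units.

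The whole miR-497 array was dimmer, with a 75th percentile of 263 units over the 183 probes well above background on all arrays, compared with 827 for the non-treated array and 778 for the miR-195 array. Each signal was therefore divided by that percentile and taken to log2, and the differences below are relative to it. Before scaling, each member was dimmer on the miR-497 array than in non-treated cells, with log2 differences of -1.39 for hsa-miR-200b, -1.48 for hsa-miR-200a, -1.50 for hsa-miR-141, -1.73 for hsa-miR-429 and -2.003 for hsa-miR-200c. The log2 ratio of the scales was -1.65. The labelling spike-ins, which are synthetic RNAs put into each sample, read 2142 and 425 units on the non-treated array and 1522 and 283 on the miR-497 array. Of the hybridisation spike-ins, 1 read 5630 and 5702 units on these arrays and the other 1411 and 1035. The part of RNA input or recovery in this dimming was not tested.

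In cells given the miR-195 mimic, no member differed from non-treated cells by 2-fold after scaling. The background for that size was 4 of 147 human miRNAs higher (2.72%) and 1 lower (0.68%), counted over miRNAs well above background on both arrays and without the transfected pair. hsa-miR-200a was 0.24 log2 units higher (spot SD 0.09) and hsa-miR-141 was 0.17 higher (spot SD 0.16). hsa-miR-200c stood at -0.40 (spot SD 0.26), hsa-miR-429 at -0.30 (spot SD 0.15) and hsa-miR-200b at -0.04 (spot SD 0.08). Thus 4 of 5 differences were larger than their spot SD, which 59.2% of the 147 miRNAs also were, and the largest fold was 1.32, for hsa-miR-200c. The family median was -0.04, beside -0.01 for all 147 miRNAs, whose differences had an SD of 0.37.

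In cells given the miR-497 mimic, again 0 of 5 members reached 2-fold against non-treated cells. Of 118 miRNAs tested, 4 were at least 2-fold higher (3.39%) and 0 lower (0%), whereas without scaling 0 were higher and 113 lower. hsa-miR-200b was 0.26 log2 units higher after scaling (spot SD 0.13), with its probes at -0.07 (spot SD 0.18) and 0.31 (spot SD 0.15). hsa-miR-200a stood at 0.17 (spot SD 0.20), hsa-miR-141 at 0.15 (spot SD 0.21), hsa-miR-429 at -0.08 (spot SD 0.20) and hsa-miR-200c at -0.35 (spot SD 0.37). Those 4 differences were smaller than their spot SD, so that 1 of 5 members exceeded it, while 49.2% of the 118 miRNAs did. The probes of hsa-miR-429, at -0.20 (spot SD 0.21) and 0.11 (spot SD 0.39), both lay within it. The family median was 0.15, beside 0.03 for all 118 miRNAs with an SD of 0.41.

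The last comparison set the miR-497 array against the miR-195 array. Of 117 miRNAs, 2 had at least a 2-fold higher level with miR-497 (1.71%) and 0 lower (0%), compared with 0 and 114 before scaling, and none of the 5 members passed that size after scaling. hsa-miR-200b was 0.30 log2 units higher on the miR-497 array (spot SD 0.12), with both probes on the same side at 0.13 and 0.32. hsa-miR-429 stood at 0.23 (spot SD 0.18), with probes at 0.22 and 0.24. The differences of hsa-miR-200c at 0.05 (spot SD 0.41), hsa-miR-141 at -0.02 (spot SD 0.19) and hsa-miR-200a at -0.07 (spot SD 0.21) lay within the spread between spots. The other 2 of 5 exceeded it, beside 40.2% of the 117 miRNAs.

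**Figure D2:**
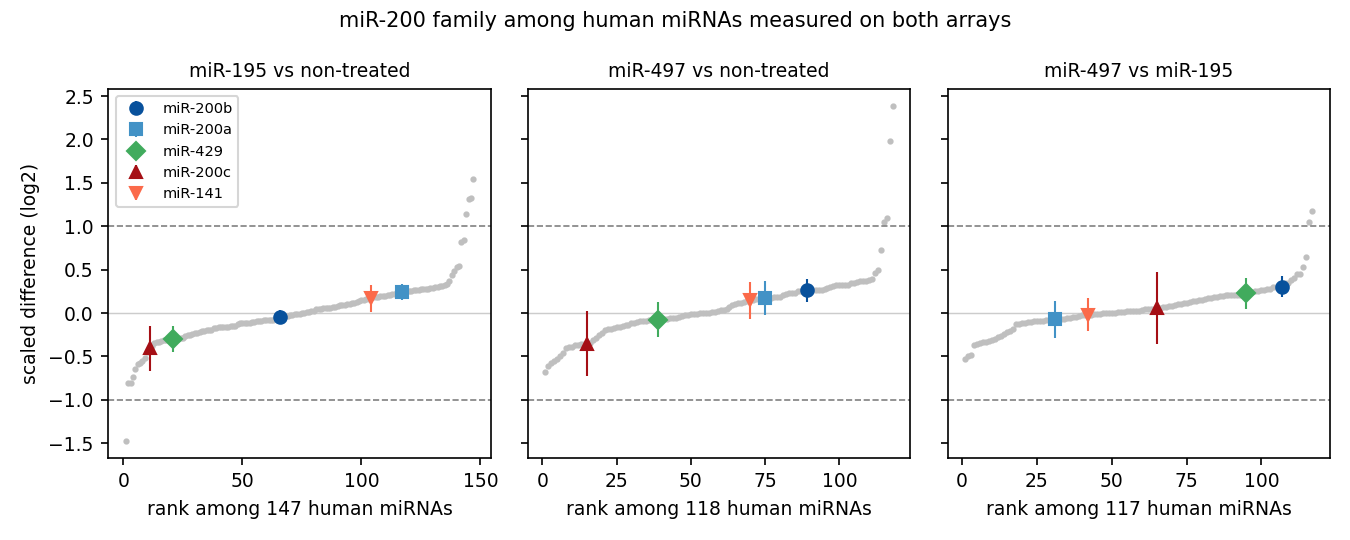
Scaled log2 difference of each member (symbols, bars 1 spot SD) beside all human miRNAs measured on both arrays (grey points), ranked from lowest to highest in each comparison. Dashed lines mark 2-fold; the 5 members lie inside them in each panel, and miR-200c at -0.40 is the lowest member against non-treated cells in the miR-195 panel.

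Ordered by scaled level, the 5 members took the arrays in 3 orders. hsa-miR-200b ran from miR-497 (1.102 on the log2 scale) to non-treated (0.84) and miR-195 (0.80), and the last pair did not differ beyond the spot SD. hsa-miR-200a ran from miR-195 (-0.92) to miR-497 (-0.99) and non-treated (-1.16), and hsa-miR-141 in the same order (-2.58, -2.60 and -2.75). For this pair of equal seed neither step in the order exceeded the spot SD, though the distance from miR-195 to non-treated did. hsa-miR-429 ran from non-treated (-2.25) to miR-497 (-2.33) and miR-195 (-2.56), with the second step alone beyond the spot SD. hsa-miR-200c, in the order of hsa-miR-429, ran from non-treated (-2.48) to miR-497 (-2.83) and miR-195 (-2.88), with neither step beyond it.

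The clusters were then set against each other by the median difference of their members, a contrast from which any single scale factor of an array cancels. For miR-195 against non-treated cells the median was -0.04 for the hsa-miR-200b, hsa-miR-200a and hsa-miR-429 cluster and -0.12 for the hsa-miR-200c and hsa-miR-141 cluster, a contrast of 0.08 (spot SD 0.17). For miR-497 against non-treated cells the medians were 0.17 and -0.10, a contrast of 0.28 (spot SD 0.29). Between the transfected arrays they were 0.23 and 0.02, a contrast of 0.21 (spot SD 0.29). Each contrast was smaller than its spot SD, which took in only the middle member of the chromosome 1 cluster. Members of the chromosome 1 cluster lay farther apart than the cluster medians did, hsa-miR-429 at -0.30 and hsa-miR-200a at 0.24 with miR-195. With the background correction normexp the contrast turned to -0.28 (spot SD 0.14) for miR-497 against non-treated cells and to -0.50 (spot SD 0.16) between the transfected arrays, both beyond their spot SD. That setting adds 50 units to every spot, and hsa-miR-200c and hsa-miR-141 read 37.1 and 43.4 units in all on the miR-497 array. The part of this offset in the turned contrasts was not tested. For miR-195 against non-treated cells it turned to -0.20 (spot SD 0.21) with quantile normalization, to -0.0084 with the median over spots, and to -0.025 by the software total of each miRNA and in the deposited table. In the software total and the deposited table most of the hsa-miR-200c value was the total of another name, as described below.

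A grouping by seed was added after the values had been seen and is given as a description. On the miR-195 array the members with AAUACUG lay between -0.40 and -0.04 relative to non-treated cells, and those with AACACUG between 0.17 and 0.24. The seed groups thus did not overlap, but how often other sets of miRNAs divide in this way was not counted. All members lay between the 5th and 95th percentiles of the 147 miRNAs, -0.54 and 0.51. The signal shared between close relatives of equal seed was not tested. Their medians were -0.30 and 0.21, a contrast of -0.51 (spot SD 0.18). It was -0.63 (spot SD 0.27) with the brightest probe only, -0.26 (spot SD 0.12) with normexp and -0.22 with the software total per miRNA, the last within its spot SD of 0.27. On the miR-497 array the ranges overlapped, at -0.35 to 0.26 and 0.15 to 0.17, and the contrast of -0.24 (spot SD 0.25) changed sign with the software total per miRNA and in the deposited table, to 0.14, and with normexp, to 0.0051. The software total and the deposited table hold the added amount in hsa-miR-200c that is described below. Between the transfected arrays the contrast was 0.28 (spot SD 0.23). These comparisons share arrays and are not separate evidence of each other.

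**Figure D3:**
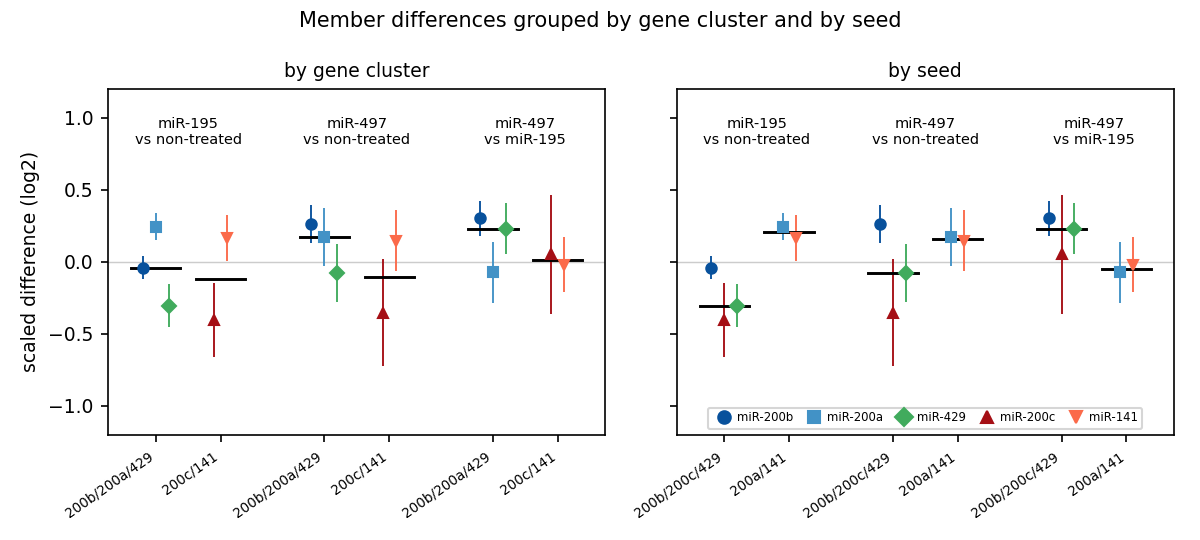
Scaled log2 difference of each member (bars 1 spot SD) in the 3 comparisons, grouped by gene cluster on the left and by seed on the right, with the group median as a black line. In miR-195 against non-treated cells the seed groups, formed after the values had been seen, have medians of -0.30 and 0.21. The cluster medians there are -0.04 and -0.12.

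For each member the human miRNAs of most similar pattern were found among 112 others measured on all arrays, as the smallest Euclidean distance between scaled log2 values centred over the 3 arrays. hsa-miR-200b was closest to hsa-miR-660, hsa-miR-590-5p and hsa-miR-17, at distances of 0.0037, 0.028 and 0.042. hsa-miR-200a was closest to hsa-miR-320c, hsa-miR-425 and hsa-miR-362-5p, and hsa-miR-141 to hsa-miR-624*, hsa-miR-362-5p and hsa-miR-140-5p. hsa-miR-429 was closest to hsa-miR-361-5p, hsa-miR-27a and hsa-miR-151-3p, and hsa-miR-200c to hsa-miR-24, hsa-miR-93 and hsa-let-7d. The family itself was set aside in that ranking. For each member these distances were smaller than the spot SDs of its own differences between arrays, so the order of neighbours is not resolved beyond the spread between spots. The nearest pair within the family was hsa-miR-200a and hsa-miR-141 at 0.055, yet 7 of the 112 lay closer to the former and 4 closer to the latter. In the other seed group hsa-miR-200c and hsa-miR-429 lay 0.20 apart, with 14 of 112 closer to the former and 28 closer to the latter. hsa-miR-200b and hsa-miR-429 lay 0.25 apart, with 49 and 40 closer, and hsa-miR-200b and hsa-miR-200c lay 0.44 apart, with 89 and 68 closer. Of unlike seed, hsa-miR-200b and hsa-miR-141 lay 0.23 apart, with 41 and 64 closer, so neither seed mate was as near to hsa-miR-200b. The remaining pairs of unlike seed lay 0.28 to 0.49 apart.

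The passenger strands, the opposite arms of the same hairpins, were measured by 15 probes and 64 spots on each array under the names hsa-miR-200a*, hsa-miR-200b*, hsa-miR-200c* and hsa-miR-141*. None of the 4 was well above background on any array. Their probe means lay between -6.44 and 13.8 units, and 2 spots in all carried the flag, both on the non-treated array. RefSeq sequences of the pair discussed next, with seeds in capitals, are shown for identification.
hsa-miR-200a*: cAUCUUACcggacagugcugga
hsa-miR-200b*: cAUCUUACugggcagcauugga

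The software that read the arrays nonetheless called hsa-miR-200a* and hsa-miR-200b* detected in non-treated cells, with totals of 196 and 772 units. Of these, 4.47 and 3.43 units came from the strands' own significant probes, those above 3 times their error. The remainder equalled the total of the preceding name in the list that the software called detected, 192 units for hsa-miR-200a and 769 for hsa-miR-200b.

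hsa-miR-200c was the member whose deposited value was changed in this way. Software totals are on another scale than the spot means above, by which its second probe read 151, 109 and 41.4 units. The software total of hsa-miR-200c was 851, 753 and 322 units on the non-treated, miR-195 and miR-497 arrays, and its own significant probes gave 78.4, 56.2 and 22.0 units of them. The own part was thus 9.21%, 7.46% and 6.82% of the total. The remainder was 772 units on the non-treated array, the total of hsa-miR-200b*, and 697 and 300.0 units on the transfected arrays, the totals of hsa-miR-200b. The first probe of hsa-miR-200c was not significant on any array and all 3 of its totals held such a remainder, while the other 12 totals of the family equalled their own probes within 1% of the total.

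The deposited log2 values of hsa-miR-200c were therefore 9.73, 9.56 and 8.33, where its own probes gave 6.29, 5.81 and 4.46. Differences between arrays changed less than levels. Without scaling, the deposited values differed by -0.18 between the miR-195 array and the non-treated array, compared with -0.48 from its own probes, and by -1.40 compared with -1.84 on the miR-497 array.

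**Figure D4:**
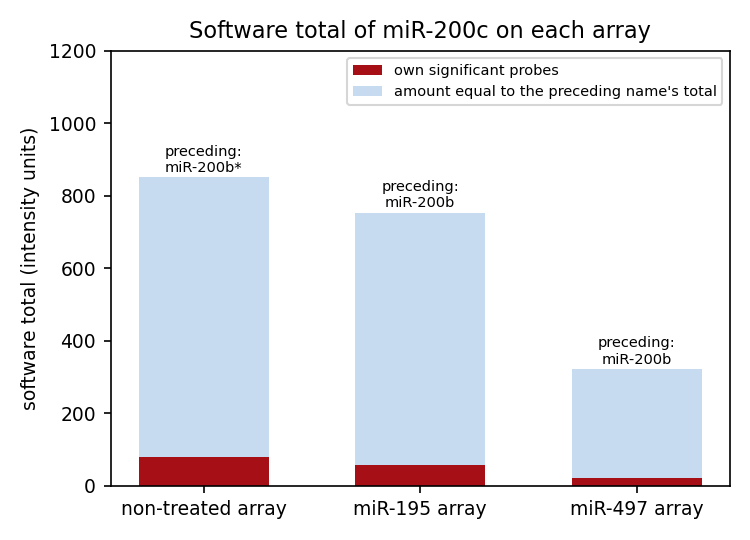
Software total of miR-200c on each array in intensity units, divided into its own significant probes (dark) and the amount equal to the total of the preceding name called detected (light). The own part is 78.4, 56.2 and 22.0 units of totals of 851, 753 and 322.

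Other miRNAs known from epithelia were read beside the family. Of hsa-miR-183, hsa-miR-96, hsa-miR-182, hsa-miR-203, hsa-miR-205 and hsa-miR-375, 2 of 6 were well above background on each array, hsa-miR-183 at 793, 796 and 310 units and hsa-miR-96 at 470, 536 and 176 units. hsa-miR-203, abundant in stratified epithelium, stood at 0.26, 0.89 and 4.13 units, and hsa-miR-205, known from basal epithelium, was below 0 on all arrays. After scaling hsa-miR-183 differed from non-treated cells by 0.09 with miR-195 and 0.29 with miR-497, and hsa-miR-96 by 0.28 and 0.23. Neither passed 2-fold, as no member of the miR-200 family did.

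The cell line was checked against miRNAs of liver and of other cell types. Of 4 hepatocyte miRNAs 3 were well above background in non-treated cells and with miR-195, and 2 with miR-497, with hsa-miR-192 at 3003, 3478 and 1352 units. hsa-miR-122, the defining miRNA of hepatocytes, was not well above background on any array, at 3.62, -0.24 and 5.62 units. Of 5 fibroblast and smooth muscle miRNAs 1 was detected, hsa-miR-199a-3p on the non-treated array at 32.8 units. It read 22.5 and 11.2 units on the miR-195 and miR-497 arrays. The summed signal of the list was 36.7, 22.1 and 6.31 units, lowered by values below 0 such as hsa-miR-214 at -16.9, -14.9 and -11.2 units. The endothelial miRNA and the 2 erythroid miRNAs were not detected. Of 4 leukocyte miRNAs 2 were detected on each array, hsa-miR-142-3p at 1521, 1244 and 397 units and hsa-miR-142-5p at 191, 182 and 57.1 units, and the part of any other cell in the signals of the miR-200 family was not tested.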

How the data were processed

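miRNAs in Ago2-IP RNA from Hep G2 cells were measured on 3 single-colour Agilent arrays, 1 per group, all on 1 slide and in 1 scan. The deposited scanner files, made by the authors with Agilent Feature Extraction 10.7.1.1, hold spot intensity on a linear scale after background subtraction, with no scaling between arrays. The authors also deposited a table of log2 values, which equalled the log2 of the software's total per miRNA within 9.6e-07 for the members. The files name the hg19 build, and no coordinates are given here because the annotation used is GRCh38.p14.

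Spots with an outlier flag were left out, used spots were averaged per probe, and probe means were summed per miRNA, divided by the array's 75th percentile over 183 shared detected probes and taken to log2. No spot was saturated. Differences are described by a size of 2-fold with the spot SD, which covers error within an array and nothing between cultures, immunoprecipitations or arrays. It is the spread of single spots and not the error of their mean. For a difference, the relative spreads of both arrays were combined. For a median it is that of the middle member, or of the middle pair combined. There was no test, and precision is limited by the number of arrays. For a miRNA below that flag on 1 array of a comparison, a bound replaced the difference. The procedure was tested on simulated spots.

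The members and lists were chosen with earlier results of these data known. Named miRNAs were all members and lists, the 3 nearest patterns of each member, and the preceding name called detected where a software total exceeded a miRNA's own probes. Alternatives covered scaling, background (normexp with an offset of 50, limma 3.58.1), spots, probe summary, detection rule, filter, deposited table and threshold. A block for slide or scan could not be fitted, with 1 slide and 1 scan for all arrays.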

Additional observations from a re-analysis of the deposited data

Results flagged for a closer look

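hsa-miR-200b was the 1 member whose scaled difference from non-treated cells had opposite signs on the transfected arrays, -0.041 log2 units (spot SD 0.08) with the miR-195 mimic and 0.26 (spot SD 0.13) with the miR-497 mimic, 1 array each. The direct difference between the transfected arrays was 0.30 (spot SD 0.12). The difference between the groups was not tested, and the first value lay within its spot SD. Opposite signs were not particular to hsa-miR-200b. Of its nearest patterns, hsa-miR-660 (-0.04 and 0.26) and hsa-miR-590-5p (-0.01 and 0.25) also had them, and hsa-miR-17 (0.01 and 0.26) did not. The share of all miRNAs with opposite signs was not counted.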

How the results depend on the processing

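Of 240 member differences under alternative settings 171 moved by less than their spot SD, and 41 changed sign. Settings that altered only the detection rule or filter could not move a member difference, and they are counted in both the 240 and the 171. No member difference at 2-fold existed to be reversed. All 5 members stayed well above background on each array under every alternative run for detection. The 3 cluster contrasts do not change with a single scale factor per array.

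Scaling set the level of all miRNAs together. Of non-control spots, 14.9%, 13.5% and 9.96% were well above background on the non-treated, miR-195 and miR-497 arrays. A percentile over every non-control probe thus drew mostly on spots that were not. With the percentile taken over every non-control probe, the cluster medians (hsa-miR-200b cluster first, then hsa-miR-200c cluster) were -0.58 and -0.66 for miR-195 against non-treated cells, -1.21 and -1.49 for miR-497 against non-treated cells, and -0.62 and -0.83 between the transfected arrays. At least 2-fold higher and lower were then 1 and 9, 1 and 110, and 0 and 17 miRNAs, and 5 members were past 2-fold in the second comparison. Without scaling the first cluster was at -0.13 in the first comparison, the medians were -1.48 and -1.75 in the second and -1.34 and -1.55 in the third, the counts in the latter comparisons were 0 and 113 and 0 and 114, and 5 members were past 2-fold in each of them. With spike-in scaling the medians were 0.32 and 0.24, -0.94 and -1.21, and -1.24 and -1.45, the counts in the latter comparisons were 1 and 65 and 0 and 113, and 2 and 5 members were past 2-fold. The median of all miRNAs moved with these settings, by -1.38, -1.65 and -1.11 for miR-497 against non-treated cells, and a single factor per array leaves the family median 0.12 above it by construction. With quantile normalization that distance was 0.042. Quantile normalization gave -0.34 for the first cluster and a contrast of -0.20 in the first comparison, and 1 miRNA higher in the third.

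With normexp the medians were 0.49 and 0.77 in the second comparison and 0.80 for the hsa-miR-200c cluster in the third, the contrasts were -0.28 and -0.50, 2 miRNAs were higher and 0 lower in the first comparison, and 10 and 7 were higher in the others. These values hold the offset of 50 units per spot. The software total per miRNA put the hsa-miR-200c cluster at 0.13 in the second comparison. The deposited table, which is unscaled, gave -0.14 for the first cluster in the first comparison, medians of -1.45 and -1.52 in the second and -1.29 and -1.40 in the third, and 5 members past 2-fold in each of the latter. Passenger strands counted as detected on the non-treated array numbered 2 when 1 flagged spot sufficed, by the software call, and in the deposited table, the last added after the data had been seen. Without a detection filter, 88 miRNAs were higher and 30 lower, then 168 and 25, and 132 and 44. At 1.5-fold 6 and 2 were lower in the first comparisons, and at 3-fold 0 were higher and 0 lower in the first, 2 higher in the second and 0 in the third. In the software total and the deposited table, hsa-miR-200c held the remainder described above. Its deposited difference stood 0.43 above that of its own probes for miR-497 against non-treated cells. For the other changes the cause was not tested. No paired analysis was possible because each group held 1 array, for which reason leaving out a replicate gave no value. The dimness of the miR-497 array limits what could be measured there.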
